A study of Homo sapiens with 6 samples.

Results

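The genes described here are the WNT ligands (WNT1 to WNT16), the Frizzled receptors with their coreceptors LRP5 and LRP6, the secreted antagonists of the SFRP and DKK families, the receptor turnover genes LGR5, RNF43 and ZNRF3, and the intracellular genes AXIN1, AXIN2, APC, CTNNB1, TCF7, TCF7L1, TCF7L2 and LEF1. They were taken by name: 50 gene names on the array, carried by 65 of its 50599 probes. Of these, 40 genes with 52 probes passed the detection filter (a p-value against background under 0.05 for every array) and were tested, and 10 genes were not. The 10 were WNT2, WNT5B, WNT8A, WNT8B, WNT9B, FZD10, LGR5, SFRP2, SFRP4 and SFRP5. Values of a gene are those of its brightest tested probe, unless another probe is named.

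WNT proteins are lipid-modified ligands that bind a Frizzled receptor together with LRP5 or LRP6. Without ligand, a destruction complex built on APC and AXIN marks β-catenin (CTNNB1) for degradation. With ligand, β-catenin reaches the nucleus and acts with the TCF/LEF factors on target genes, AXIN2 among them. DKK proteins such as DKK1 block LRP5 and LRP6, and SFRP proteins bind the ligands. RNF43 and ZNRF3 remove Frizzled from the cell surface unless R-spondins and LGR receptors hold them back. The pathway is best known for maintaining intestinal crypts, and in pancreatic cancer some tumors depend on WNT ligand because RNF43 is lost.

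BxPC-3 cells, a human line derived from a pancreatic adenocarcinoma, had been grown under the skin of female BALB/c (nu/nu) mice, which lack T cells, and the tumors were removed. The 3 DFX tumors came from mice given deferasirox (DFX), an oral iron chelator, suspended in saline by gavage at 200 mg/kg on alternate days for 21 days, and the 3 Control tumors from mice given the vehicle only. Per the study's methods, the 3 tumors of each group were picked at random from larger groups, and all descend from 1 cell line. Total RNA of the whole removed tumor was hybridized to one-color human arrays, so that the RNA also held transcripts of the mouse host. In such bulk RNA, fewer cells of a type and less RNA per cell cannot be told apart. How far the human probes read mouse transcripts was not tested. The fibroblast, endothelial, leukocyte and red blood cell markers below are therefore not taken as measures of host cell content.

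All 6 arrays lay on 1 slide, with the Control tumors in row 1 and the DFX tumors in row 2, so the row and the treatment cannot be told apart. Between 50.3% and 56.5% of probes were well above background, lowest on the array of DFX tumor 2. The 8 pancreatic carcinoma epithelium markers were well above background in every tumor. Their summed level was 19.30 to 19.33 on the log2 scale in Control and 19.36 to 19.38 in DFX, without overlap by a narrow gap. KRT19, the brightest of the 8, overlapped between groups. Of the 8, 7 were higher in DFX, 3 of them called (EPCAM, KRT8 and KRT18). Summed fibroblast markers ranged from 13.8 to 14.5 in Control and from 13.7 to 14.0 in DFX, endothelial markers from 8.96 to 9.90 and from 9.20 to 9.29, and leukocyte markers from 11.0 to 11.2 and from 11.0 to 11.3. Within the overlapping sums single markers were called: of 9 tested fibroblast genes DCN and PDGFRA were lower and LUM higher, and of 4 tested endothelial genes PECAM1 was higher. None of the 6 tested leukocyte genes was called. Red blood cell markers (12.4 to 12.7 in Control, 10.7 to 10.8 in DFX) and intestinal epithelium markers (9.95 to 11.9 in Control, 12.2 to 12.8 in DFX) also did not overlap between the groups. The red blood cell sum followed its brightest gene, HBA2 (12.3 to 12.7 in Control, 10.5 to 10.6 in DFX). HBB and SLC4A1 overlapped between groups, and of 4 tested red blood cell genes 2 were called by their brightest probe, both lower. Whether those markers had a part in any WNT pathway difference was not tested. By their brightest probe, 7.98% of all genes were called (unadjusted limma p under 0.05). The marker lists were chosen with earlier results of these data known.

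Some WNT genes were read by several 60-base probes whose fitted differences were unequal. Whether probes of a gene truly differed was compared for TCF7L2 only, below. Probes in coding sequence are shown first, as the array file gives them, 5′ to 3′. The WNT7A probe is shown for the ligands' defining feature: its capitals are the codons of the stretch around the serine to which PORCN attaches the lipid. In the other probes nothing is capitalized. The WNT7B pair is shown because the first of them was lower in DFX and the second, nearer to the 3′ end, overlapped between groups.
WNT7A probe A_23_P258410 (chr3:13860851-13860910, minus strand, hg19): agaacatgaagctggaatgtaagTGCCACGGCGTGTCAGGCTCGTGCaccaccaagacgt
WNT7B probe A_24_P911607 (chr22:46372571-46372630, minus strand, hg19): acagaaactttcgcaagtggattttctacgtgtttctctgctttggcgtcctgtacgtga
WNT7B probe A_33_P3256920 (chr22:46318943-46319002, minus strand, hg19): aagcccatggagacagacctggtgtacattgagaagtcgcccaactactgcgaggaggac

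The TCF7L2 probes are shown because their differences were of unequal size, though both overlapped between groups and neither was called. They were not compared with each other. The first reads the 5′ part of the transcript (base 894) and the second starts at base 1440, at the start of the HMG box that binds DNA. The APC probe, at base 595 of its transcript, is the one that was higher in DFX.
TCF7L2 probe A_33_P3377304 (chr10:114724321-114724380, plus strand, hg19): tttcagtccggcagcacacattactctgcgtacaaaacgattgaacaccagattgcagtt
TCF7L2 probe A_23_P389588 (chr10:114911485-114911544, plus strand, hg19): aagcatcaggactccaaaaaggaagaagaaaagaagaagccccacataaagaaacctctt
APC probe A_33_P3408983 (chr5:112103018-112103077, plus strand, hg19): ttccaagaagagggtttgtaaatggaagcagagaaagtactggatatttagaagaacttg

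The differences among these genes ran in both directions, from -0.52 to 0.92 on the log2 scale over the 34 genes that were well above background in all 6 tumors. No member passed limma at an adjusted p under 0.05, with a lowest adjusted p of 0.514, and no probe on the array did, with a lowest of 0.0675. At an unadjusted p under 0.05, called below, 7 of the 52 tested probes differed (13.5%), against 8.41% of all 31807 tested probes. Of these, 4 were higher in DFX (APC, DKK4, FZD4 and TCF7L2), where 3.46% of all probes were called higher, and 3 were lower (FZD1, WNT6 and WNT7B), where 4.95% were called lower. By gene, 7 of 40 had a called probe (17.5%, against 10.8% of all genes), and 5 of 40 were called by their brightest probe (12.5%, against 7.98%). The groups did not overlap in 10 of the 52 probes (19.2%, against 15.5% of all probes), 4 higher and 6 lower in DFX. Over the 40 genes the log2 fold change had a median of 0.07, with 22 values above 0 and 18 below, beside a median of -0.01 over all 22718 tested genes. Under median scaling, where the median over tested probes was itself -0.10, 18 of the 40 genes were above 0. These shares lie within a few members of the background.

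**Figure D1:**
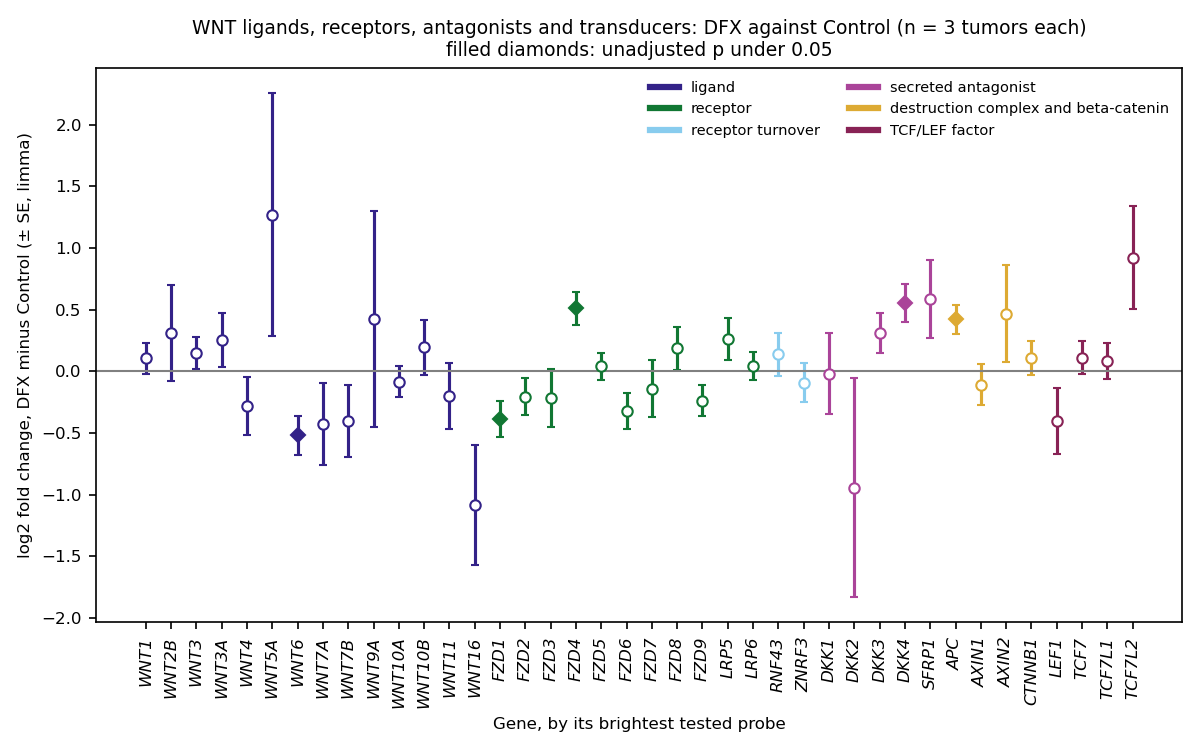
Log2 fold change (DFX minus Control, 3 tumors each) of the 40 tested genes, by their brightest probe, with the limma SE as bars and colors for the role of the gene. Filled diamonds mark the 5 genes with an unadjusted p under 0.05 (WNT6, FZD1, FZD4, DKK4 and APC), and most other genes lie within 0.5 of 0. For WNT5A, WNT9A, WNT16, FZD3, DKK2 and DKK3 the point is a fitted value only, since not every tumor was well above background.

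With the slide column as a block, which compares tumors in the shared columns of the slide, 3 members were called (LEF1, WNT16 and WNT7B), so that of the 7 called genes only WNT7B was called there. Only 2 of the columns held both groups, and 4.46% of all probes were called in that fit. The 7 genes' direction was the same in it.

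Among the ligands, 14 of 19 were tested and 2 had a called probe (14.3%, against 10.8% of all genes), both lower in DFX. By their brightest probe 1 was called (7.14%, against 7.98% of all genes), and 7 were higher and 7 lower. WNT6, a ligand known from epithelial development, read 7.40, 7.40 and 7.80 on the log2 intensity scale in Control tumors 1 to 3 and 7.20, 6.93 and 6.91 in DFX tumors 1 to 3. All DFX tumors lay below all Control tumors, with DFX 1 closest. The difference was -0.52 ± 0.16 (log2, SE; limma adjusted p = 0.536), or 1.43-fold lower. It was -0.48 without DFX tumor 2 and -0.47 without DFX tumor 3, and did not pass the threshold in either case. The probe lies at chr2:219738852-219738911 (hg19), towards the 3′ end of the transcript.

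WNT7B, a ligand of epithelia, was called by its dimmest probe only, A_24_P911607 (first of the WNT7B sequences above). That probe read 4.54, 4.53 and 5.40 in Control and 3.97, 3.86 and 3.64 in DFX. Every Control tumor but no DFX tumor gave a signal well above background, so only a bound can be given: means of 4.82 and 3.82, at least 1.41-fold lower in DFX (limma adjusted p = 0.514). Without Control tumor 3, the highest, the bound was 1.15-fold.

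The brightest WNT7B probe, A_33_P3256920, overlapped between groups. It read 7.78, 8.62 and 8.80 in Control and 8.05, 8.20 and 7.74 in DFX, a difference of -0.40 ± 0.29. Control tumor 1 was as low as the DFX tumors, and without it the difference was -0.71 and passed the threshold. The remaining probe, A_33_P3248903, read 6.13, 6.05 and 7.04 against 6.20, 7.10 and 5.60, a difference of -0.11 ± 0.45. WNT7A, the closest relative of WNT7B, gave the same order of tumors as the bright WNT7B probe: 6.88, 7.78 and 7.96 in Control and 7.20, 7.42 and 6.72 in DFX. Its difference was -0.43 ± 0.33, and -0.76, past the threshold, without Control tumor 1, the lowest Control tumor.

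The other ligands were not called. WNT10A, at 11.10, 11.35 and 11.45 in Control and 11.26, 11.23 and 11.15 in DFX, differed by -0.08 ± 0.13. WNT3 differed by 0.15 ± 0.13 and WNT3A, a classic activator of β-catenin, by 0.25 ± 0.22. WNT1, WNT2B, WNT4, WNT10B and WNT11 were well above background on all arrays and overlapped between groups. WNT9A was well above background on 2 of 6 arrays and stood out in DFX tumor 1 alone, at 6.39 against 3.14 to 4.40 elsewhere.

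WNT5A and WNT16 show how far 1 tumor could set a value. WNT5A, which mainly signals without β-catenin, read 6.21, 5.21 and 2.37 in Control and 5.22, 5.90 and 6.48 in DFX. Control tumor 3 was the only one not well above background. The fitted difference of 1.27 ± 0.99 was not called, and it was 0.16 without Control tumor 3.

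WNT16 read 3.71, 3.89 and 4.98 in Control and 3.38, 2.27 and 3.69 in DFX, without overlap by a narrow gap. It was not called. The probe was well above background in Control tumor 3 only, so no difference is given.

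**Figure D2:**
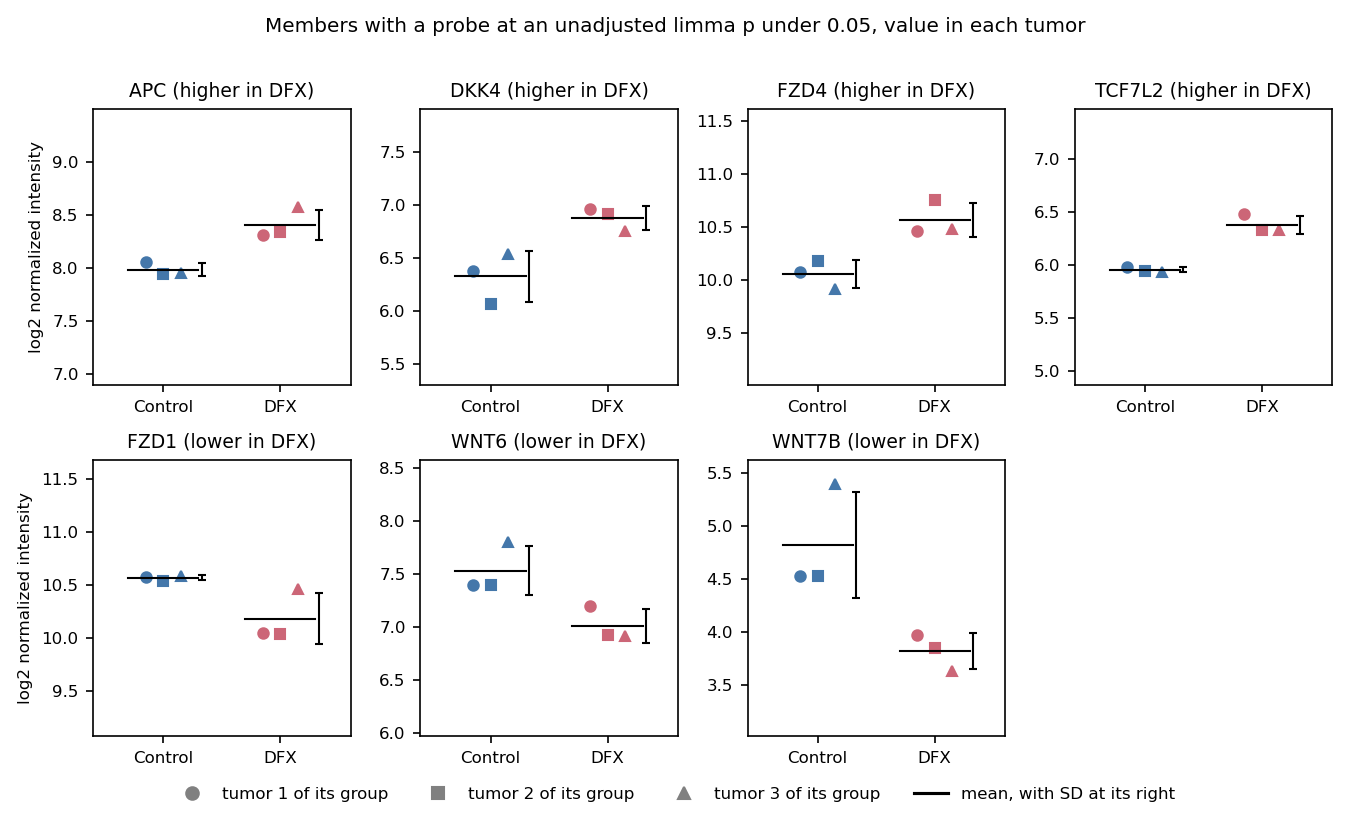
Log2 normalized intensity in each tumor for the 7 called probes (APC A_33_P3408983, DKK4 A_23_P94275, FZD4 A_23_P64617, TCF7L2 A_23_P127013, FZD1 A_24_P38276, WNT6 A_23_P119916 and WNT7B A_24_P911607), with the group mean as a line and the SD as a bar. Each panel spans the same range around its own mean, and in each the 3 DFX tumors lie on one side of the 3 Control tumors, by as little as DFX tumor 3 in FZD1.

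Of the receptors, 11 of 12 were tested, and FZD4 and FZD1 were called in opposite directions (2 of 11, against 10.8% of all genes). FZD4, a receptor that also answers the non-WNT ligand norrin, read 10.07, 10.17 and 9.91 in Control and 10.46, 10.75 and 10.48 in DFX. Every DFX tumor was above every Control tumor. The difference was 0.51 ± 0.13 (limma adjusted p = 0.514), or 1.42-fold higher. The probe lies at chr11:86656800-86656859, minus strand (hg19), far into the 3′ part of a long transcript.

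FZD1 read 10.58, 10.54 and 10.58 in Control and 10.05, 10.04 and 10.47 in DFX. The Control tumors were nearly equal, DFX tumors 1 and 2 were clearly lower, and DFX tumor 3 was just below the Controls. The difference was -0.38 ± 0.15 (adjusted p = 0.580), or 1.31-fold lower. This call was lost in 8 of 22 alternatives. It was lost without each tumor other than DFX tumor 3: without Control tumors 1, 2 and 3 the difference was -0.38, -0.40 and -0.38, and without DFX tumors 1 and 2 it was -0.31 and -0.31. It was also lost in a linear model without moderation.

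Of the 9 tested Frizzled genes, 6 were lower in DFX, as were 11882 of all 22718 tested genes. The Frizzled count ran from 5 without Control tumor 3 to 7 without Control tumor 1 or under median scaling. FZD6, a receptor used in planar cell polarity, read 12.61, 12.20 and 12.29 in Control and 12.18, 11.94 and 12.02 in DFX. The groups did not overlap, though Control tumor 2 and DFX tumor 1 were nearly equal, and the difference was -0.32 ± 0.15, not called. It passed the threshold with limma-trend and under median scaling (-0.43).

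FZD9 read 6.20, 6.52 and 6.46 in Control and 6.19, 6.10 and 6.18 in DFX. The groups did not overlap, though Control tumor 1 was nearly equal to DFX tumors 1 and 3, and the difference of -0.24 ± 0.12 was not called. Without Control tumor 1 it was -0.33 and passed the threshold. FZD2 was lower by less, with a difference of -0.20 ± 0.15, and FZD3, FZD5, FZD7 and FZD8 overlapped between groups.

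The coreceptors were not called. LRP5 read 9.97, 9.98 and 9.50 in Control and 10.09, 10.20 and 9.95 in DFX. Control tumor 3 was low and the other Control tumors lay within the DFX range, with a difference of 0.26 ± 0.17 that was 0.10 without Control tumor 3. LRP6 stayed between 10.07 and 10.32 in all 6 tumors.

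The turnover genes gave no call. RNF43, the ubiquitin ligase that removes Frizzled, read 11.23, 10.90 and 10.70 in Control and 11.02, 10.95 and 11.28 in DFX, with Control tumors 2 and 3 below the DFX tumors and Control tumor 1 among them, and a difference of 0.14 ± 0.18. ZNRF3, its partner, differed by -0.09 ± 0.16. LGR5, a crypt stem cell marker, was well above background in no tumor.

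Of the secreted antagonists, 5 of 8 were tested and DKK4 was called (1 of 5, against 10.8% of all genes). DKK4, a DKK family inhibitor that is itself known as a β-catenin target, read 6.38, 6.07 and 6.53 in Control and 6.97, 6.91 and 6.75 in DFX. All DFX tumors were higher than all Control tumors. The difference was 0.55 ± 0.15 (limma adjusted p = 0.514), or 1.47-fold higher, and 0.65 without Control tumor 3. Over 22 alternatives it ran from 0.33 to 0.67 and was called in 21, but not with the slide column as a block.

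DKK1, the prototype inhibitor of LRP6, read 11.10, 11.66 and 12.29 in Control and 11.93, 11.73 and 11.32 in DFX. The Control tumors spanned more than the DFX tumors and the means were nearly equal, with a difference of -0.02 ± 0.33. DKK2 was near the floor (2.14 to 2.51) in 5 tumors and well above background only in Control tumor 3, at 5.40. DKK3 was well above background in no tumor.

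SFRP1, a decoy for WNT ligands often silenced in carcinoma, read 6.26, 6.23 and 6.80 in Control and 6.79, 6.62 and 7.65 in DFX. DFX tumor 3 was the highest, and Control tumor 3 lay inside the DFX range. The difference of 0.59 ± 0.31 was not called. SFRP2, SFRP4 and SFRP5 were well above background in no tumor.

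Of the 4 genes of the destruction complex and β-catenin, only APC was called (1 of 4, against 10.8% of all genes). APC, the scaffold that captures β-catenin, read 8.06, 7.94 and 7.95 in Control and 8.31, 8.34 and 8.57 in DFX with probe A_33_P3408983. Every DFX tumor was above every Control tumor by more than the Control tumors differed among themselves. The difference was 0.42 ± 0.12 (limma adjusted p = 0.514), or 1.34-fold higher. The other APC probe, A_23_P70213, was well above background on 2 arrays only, so no difference is given for it. The mean of both probes, which includes it, did not pass the threshold.

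AXIN2, which is both a part of the complex and a standard readout of β-catenin activity, was not called. Its brightest probe read 6.74, 6.01 and 5.20 in Control and 6.40, 6.20 and 6.76 in DFX, and Control tumor 3 was the lowest of the 6. The difference was 0.47 ± 0.40. It was 0.85, past the threshold, without Control tumor 1 and 0.08 without Control tumor 3, so either Control tumor set its size. The dimmer AXIN2 probe gave the same order of Control tumors (5.51, 4.76 and 3.30), but Control tumor 3 was not well above background there. Its difference of 0.81 ± 0.59 is therefore a fitted value only.

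CTNNB1 itself read 12.34, 12.24 and 11.97 in Control and 12.41, 12.27 and 12.18 in DFX, with partial overlap and a difference of 0.11 ± 0.14. Its dimmer probe differed by -0.14 ± 0.22, and by -0.37, past the threshold, without Control tumor 3. AXIN1 overlapped between groups, with means of 8.81 ± 0.22 in Control and 8.70 ± 0.20 in DFX (SD, n = 3 each).

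Of the 4 TCF/LEF factors, TCF7L2 was called (1 of 4, against 10.8% of all genes), by 1 of its 4 tested probes. TCF7L2 encodes the main β-catenin partner of intestinal epithelium and is spliced in many forms. The called probe, A_23_P127013 (chr10:114925978-114926037, hg19, base 2544 of its transcript), read 5.98, 5.95 and 5.94 in Control and 6.48, 6.33 and 6.33 in DFX. The Control tumors were nearly identical and all DFX tumors lay above them. The difference was 0.43 ± 0.10 (limma adjusted p = 0.514), or 1.34-fold higher.

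The brightest TCF7L2 probe, A_23_P389588 at the HMG box, read 11.55, 11.46 and 10.89 in Control and 12.98, 11.40 and 12.29 in DFX. DFX tumors 1 and 3 were high, while DFX tumor 2 lay within the Control range. Its difference of 0.92 ± 0.42 was not called, and without DFX tumor 2 it was 1.33 and passed the threshold. It also passed with normexp background correction and on the raw mean signal. The same held when only probes well above background on all arrays were tested. The probes A_33_P3377294 and A_33_P3377304 differed by 0.24 ± 0.12 and 0.14 ± 0.18 and overlapped between groups. The mean of the 4 probes was 0.43 higher in DFX and passed the threshold.

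LEF1, a factor that β-catenin also induces, read 7.28, 6.84 and 7.75 in Control and 6.97, 6.59 and 7.11 in DFX. The groups overlapped and the difference was -0.40 ± 0.27, or -0.63, past the threshold, without Control tumor 2, the lowest Control tumor. TCF7 differed by 0.11 ± 0.14, and TCF7L1 stayed between 8.81 and 9.24.

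**Figure D3:**
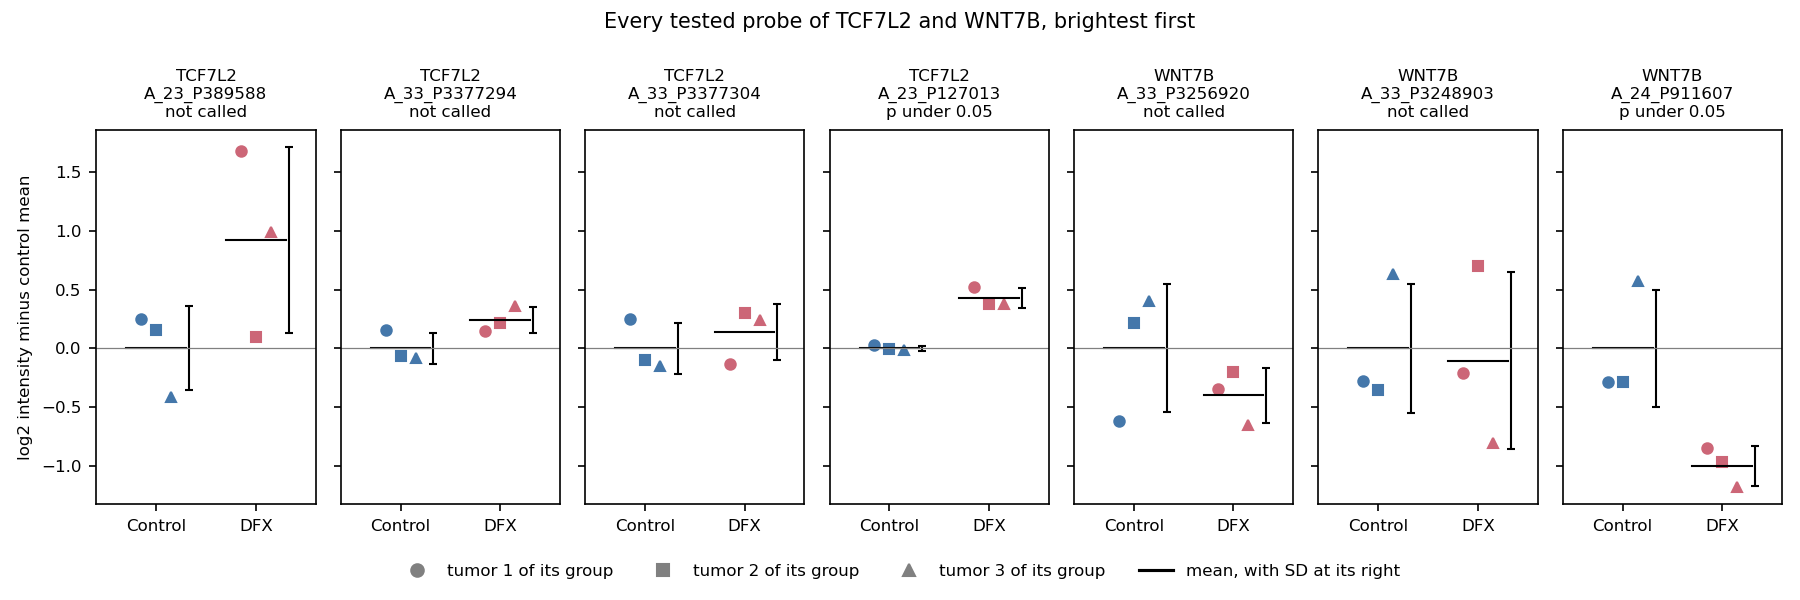
Log2 intensity minus the Control mean of the same probe, in each tumor, for the 4 tested probes of TCF7L2 and the 3 of WNT7B, brightest first within each gene, with group means as lines and SDs as bars. The means of all 4 TCF7L2 probes are above 0 in DFX and those of all 3 WNT7B probes below 0, and the called probe of each gene is the dimmest.

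For TCF7L2, where the called probe and the other 3 were well above background in every tumor, the difference between probes was itself compared between groups, in each tumor, with 3 comparisons. The called probe's difference was 0.50 smaller than that of the brightest probe and 0.19 and 0.29 larger than those of the other two (exact two-sided permutation p = 0.3 to 0.4, where 3 against 3 tumors cannot go below 0.1; adjusted p = 0.4 for each). Of the 9 genes with several tested probes, dim ones included, the fitted differences had the same sign in 7 and opposite signs in 2, CTNNB1 and WNT3A.

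**Figure D4:**
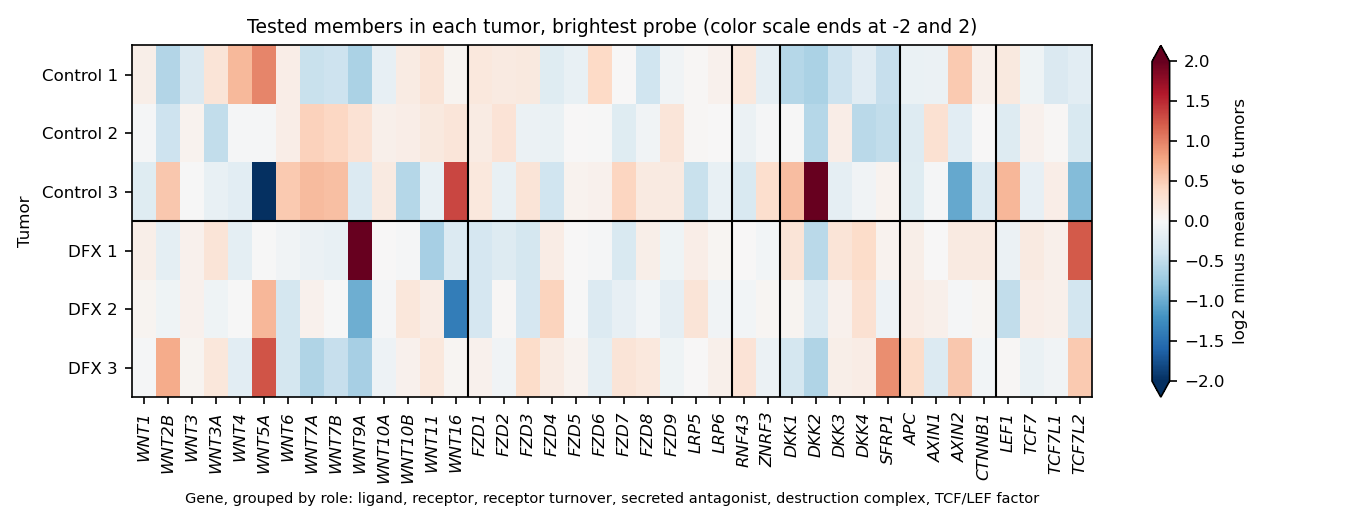
Log2 intensity of the 40 tested genes (brightest probe) in each of the 6 tumors, as the difference from the gene's mean over the 6 tumors, with genes grouped by role and a line between Control and DFX tumors. Control tumor 3 has most of the deepest single values, low in WNT5A and AXIN2 and high in DKK2 and WNT16, and DFX tumor 1 stands out in WNT9A.

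Among these genes 1 Control tumor stood apart. Control tumor 3 held the highest or the lowest value of the 6 in 33 of the 52 tested probes (63.5%), against 45.5% over all tested probes, and 17 of these were its lowest and 16 its highest values. The other tumors held an extreme in 17.3% (Control tumor 2) to 34.6% (DFX tumor 3) of the WNT probes. WNT2, not tested because it was at the floor elsewhere, read 5.54 in Control tumor 3 and 2.09 to 2.66 in the other 5. Without Control tumor 3, 7 members were called, 6 of them the same as with it: FZD1 was lost and CTNNB1 was gained by its dimmer probe.

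The rest of the pathway was read from 8 lists of 76 further genes, of which 63 were tested. By their brightest probe 4 were called (6.35%, against 7.98% of all genes), 3 higher and 1 lower. By any probe 7 were called (11.1%, against 10.8%). All 4 called by their brightest probe were β-catenin target genes, a list of 16 with 13 tested. Called or not, 7 of the 13 were higher in DFX and 6 lower by their brightest probe. None of the 15 tested cytoplasmic transducers, 13 nuclear cofactors, 9 planar cell polarity genes, 3 genes of R-spondins and their receptors, 3 non-Frizzled receptors, 6 other inhibitors and 2 secretion genes was called by its brightest probe. Of the last 2 lists, KREMEN1 and WLS had a dimmer probe that was lower in DFX, as had the target CD44. Their values were known when they were picked to be named.

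The called target genes that were higher in DFX were EPHB2, EPHB3 and MMP7. EPHB2 and EPHB3, ephrin receptors that position cells along the intestinal crypt, read 9.75, 9.75 and 9.88 (EPHB2) and 10.19, 10.14 and 10.19 (EPHB3) in Control. In DFX they read 10.18, 10.04 and 10.20 (EPHB2) and 10.52, 10.51 and 10.39 (EPHB3). All DFX tumors were above all Control tumors in both genes, by 0.35 ± 0.11 for EPHB2 and 0.30 ± 0.10 for EPHB3. The EPHB2 call was lost without Control tumor 2 (0.33) and without DFX tumor 1 (0.33). The EPHB3 call was lost without Control tumor 2 (0.28), DFX tumor 1 (0.28) and DFX tumor 2 (0.28). EPHB2 had 2 other tested probes, well above background in all tumors, that overlapped between groups and were not called, and the mean of its probes (0.18) was not called.

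MMP7, a matrix protease of glandular epithelium, read 8.97, 9.07 and 8.66 in Control and 9.32, 9.28 and 9.26 in DFX. The DFX tumors were close together and above the Controls, by 0.39 ± 0.14. That call was lost without Control tumor 1 (0.42), Control tumor 3 (0.27) and DFX tumors 1 (0.37), 2 (0.39) and 3 (0.40). Under median scaling the differences were 0.25 for EPHB2, 0.20 for EPHB3 and 0.29 for MMP7, none past the threshold. With the slide column as a block none of these 3 was called either (EPHB2 0.31, EPHB3 0.26, MMP7 0.46), and with the replicate block EPHB3 was not.

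TBX3, a T-box repressor, moved the other way by its brightest probe, A_23_P383819. It read 5.17, 4.12 and 4.38 in Control and 1.86, 3.49 and 3.03 in DFX, with no overlap. Only 2 Control tumors and none of the DFX tumors gave a signal well above background, with group means of 4.56 and 2.80. TBX3 was thus at least 1.17-fold lower by this probe, and without Control tumor 1 there was no such bound above 1. The other tested TBX3 probe, A_23_P13772, was well above background in no tumor. It overlapped between groups and was not called. The intestinal epithelium markers, which include no gene named here, were higher in DFX in 8 of 8 tested genes by their brightest probe. Of these, 6 were called, against 7.98% of all genes. The part of that shift in the target genes was not tested. This marker list was chosen with earlier results of these data known.

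**Figure D5:**
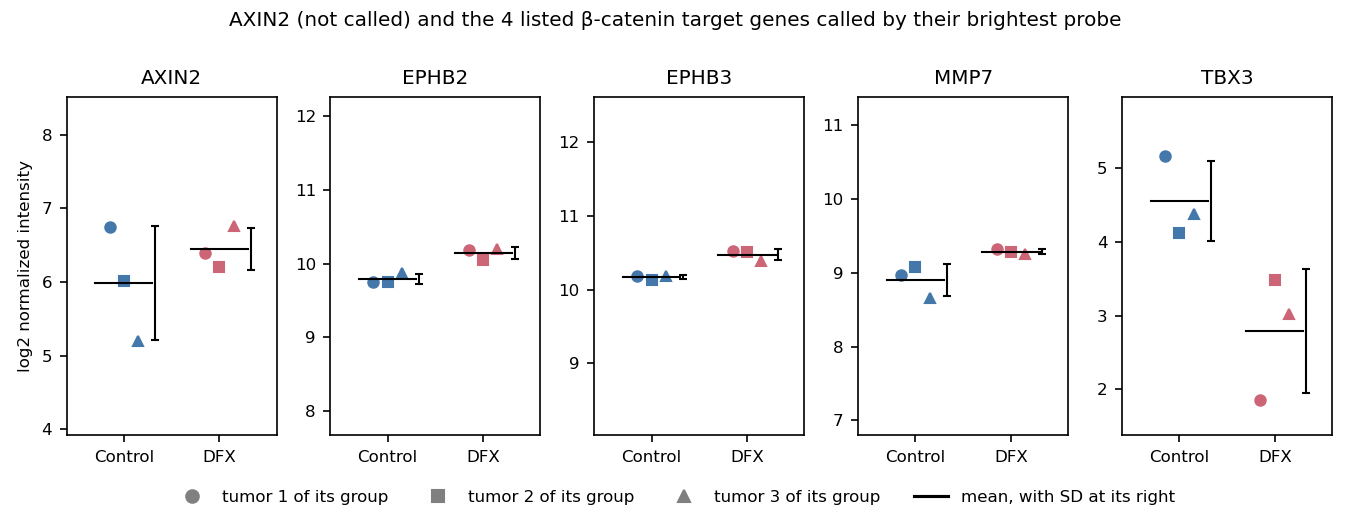
Log2 normalized intensity in each tumor for AXIN2 (not called) and for the 4 listed β-catenin target genes called by their brightest probe, with group means as lines, SDs as bars and the same span on every axis. EPHB2, EPHB3 and MMP7 are higher in all DFX tumors by less than 0.5, TBX3 is lower in all, and AXIN2 overlaps through Control tumor 1, while Control tumors 2 and 3 lie below the DFX tumors.

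The promoters of the genes were searched for the TCF/LEF core word, CTTTGAT or CTTTGTT on either strand, in RefSeq windows (GRCh38.p14) from 250 bases before to 50 bases after a start site. Windows were given for 34 of the 50 genes, 42 in all, and 4 of these held a word (9.52%), against 7.61% of all 35116 windows. The 4 genes were TCF7, DKK1, TCF7L2 and WNT3. The bases before the start site are shown for TCF7L2 (an internal start), a called gene, and for DKK1, which did not differ, with the word in capitals, 133 and 76 bases before the start. A match is a description of the letters only.
TCF7L2 (chr10:113126383-113126632, plus strand, GRCh38.p14): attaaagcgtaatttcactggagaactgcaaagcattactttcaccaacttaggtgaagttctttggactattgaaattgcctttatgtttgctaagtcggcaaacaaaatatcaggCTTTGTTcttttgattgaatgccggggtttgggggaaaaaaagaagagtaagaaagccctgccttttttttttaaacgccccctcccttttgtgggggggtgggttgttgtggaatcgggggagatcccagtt
DKK1 (chr10:52314031-52314280, plus strand, GRCh38.p14): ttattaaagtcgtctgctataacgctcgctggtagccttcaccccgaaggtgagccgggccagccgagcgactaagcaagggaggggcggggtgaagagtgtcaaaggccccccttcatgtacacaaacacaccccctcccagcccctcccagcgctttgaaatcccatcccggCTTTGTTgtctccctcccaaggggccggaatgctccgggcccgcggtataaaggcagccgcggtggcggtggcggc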

How the data were processed

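RNA of 6 BxPC-3 xenograft tumors, 3 per group by the sample titles, was measured on one-color Agilent arrays, 1 tumor per array. For every array the authors deposited the scanner's output, with linear intensities (Feature Extraction 10.7.1.1 in the file headers, 9.5.1.1 in the submitters' processing notes), a p-value of each spot against its background and flags, none normalized between arrays, and a table of the authors' processed intensities, used as an alternative. Background-subtracted signals were log2-transformed and quantile-normalized over 58717 non-control spots. Then 1398 outlier spot values were left out, spots averaged per probe, and only probes kept whose p-value against background was under 0.05 for every array (31807). Groups were compared with limma 3.58.1 (R 4.3.3, lmFit and eBayes, Benjamini-Hochberg over all tested probes), which was tested on simulated data. A probe is called at an unadjusted p under 0.05. Differences are log2 fold changes, DFX minus Control, with the SE of the fit. Where a probe was well above background in no tumor of a group, the brighter group's mean was set against the higher of the lowest signal well above background and the probe's own signal on each array. The genes and lists were chosen with earlier results of these data known. All members may be named; those called or without overlap are given in every tumor, and listed pathway genes are named where their brightest probe was called without overlap. Gene names and positions (hg19) are those of the array design, and promoters those of RefSeq. The SE rests on the spread between these tumors only, moderated by limma with the spread over all tested probes. With 3 arrays per group the precision is limited. Alternatives covered normalization, background, signal, filters, outliers, the test, blocks, the rule for several probes, and leaving out tumors one at a time.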

Additional observations from a re-analysis of the deposited data

How the results depend on the processing

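No member passed an adjusted p under 0.05 under any alternative run. The count of called genes, 7, ran from 5 to 9 with 1 tumor left out, was 3 with the slide column as a block, 10 with the Kruskal-Wallis H test, 9 with the replicate number as a block (replicate block) and 6 to 8 otherwise. With 3 against 3 tumors the Kruskal-Wallis H test called just the probes without overlap between groups. It called 15.5% of all tested probes, so its 10 members are no further result. The replicate block lost FZD1 and gained LEF1, SFRP1 and WNT16, and the replicate numbers do not pair the tumors (correlations of deviations 0.03, 0.03 and 0.02). The slide column block ended the calls of APC, DKK4, FZD1, FZD4, TCF7L2 and WNT6, and on the raw mean signal WNT7B was lost. The median over the 40 genes, 0.0656 on the log2 scale, was -0.0388 under median scaling, 0.0387 with normexp, 0.0388 from raw mean signals, 0.0424 when probes of a gene were averaged and 0.0048 to 0.0661 with 1 tumor left out. No called probe turned direction in the alternatives run. Among the others, CTNNB1 turned under median scaling (-0.0062), with its probes averaged (-0.0173) and with 1 tumor left out (-0.0007 to 0.1853). DKK1 turned with array quality weights (0.1802) and with 1 tumor left out (-0.3096 to 0.2837), as did WNT7B probe A_33_P3248903 (0.0840, and -0.5067 to 0.2443). ZNRF3 (-0.2053 to 0.0551) turned with 1 tumor left out. The cause of these shifts was not tested.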
